A study of Drosophila melanogaster with 8 samples.

Results

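Cytochrome P450 enzymes are haem proteins that insert oxygen into small molecules. In insects they make and break down the moulting hormone ecdysone, build cuticular hydrocarbons, process fatty acids and clear plant toxins and insecticides. Most sit in the endoplasmic reticulum and take electrons from the reductase Cpr, while a smaller clan works in mitochondria with ferredoxins. The Drosophila genes are numbered by family (4, 6, 9, 12 and others) and many lie in tandem clusters. The ovary makes its own ecdysteroids, whereas detoxifying P450 genes are best known from gut, Malpighian tubule and fat body.

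The P450 genes described here were selected on their symbol and their presence in the authors' deposited differential expression table: the symbol had to begin with Cyp and a number. That pattern matched 80 of the 11397 genes in the table. Cyp1, which matched too, encodes a cyclophilin and no P450, and it was set aside (1104 ± 35.4 and 1006 ± 41.7 TPM in the 2 groups, SD over 4 libraries, adjusted p 0.103 in limma), which left 79 P450 genes. They comprised 21 genes of family 4, 25 of family 6, 6 of family 9, 7 of family 12 and 20 of other families, and 2 of the 79 are pseudogenes by their symbols (Cyp6a15Psi and Cyp6t2Psi). Presence in that table was the only measured property used, neither the sign nor the size of a change, and the filter behind it is not stated in the files or labels. The lowest mean normalised signal among them in that table was 1.27 for Cyp6t3, 1.78 for Cyp9b1 and 2.30 for Cyp313a3. A further 6 P450 genes were present only in the table of abundances, where the highest value in any library was 0.1001 TPM, for Cyp316a1.

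Polyadenylated RNA was sequenced from ovaries of Drosophila melanogaster females aged 4 to 5 days, with about 35 ovaries in each sample. The ovaries had been enriched by genetic means for cells resembling germline stem cells. The 2 groups were a control (4 samples, labelled Control Stwl) and an overexpression of the germline chromatin protein Stonewall, Stwl (4 samples, labelled Test StwlEY). Neither the alleles used for enrichment nor the driver of Stwl nor the background strains are named in the labels, so a strain difference and an effect of Stwl cannot be told apart. Whether the 4 samples of a group derive from separate crosses is not stated either, and p-values then measure only the spread between these samples. Abundances are in TPM, a unit that corrects for transcript length and scales every library to the same sum, so sequencing depth is unknown.

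The labels were checked on stwl, which stood at 25.1, 21.9, 23.6 and 23.5 TPM in the controls and at 45.5, 55.5, 62.6 and 67.8 TPM with overexpression (log2 fold change 1.25 ± 0.115 SE, adjusted p 0.000323 in limma). The pigment gene y also differed, at 0.0255 ± 0.0264 TPM in controls against 2.5 ± 0.634 TPM (SD over 4 libraries). All 6 germline markers were detected, with a sum of 978 to 1067 TPM in controls and 701 to 1029 TPM with overexpression. Their median log2 fold change was -0.24, and bgcn fell, from 55.0 ± 3.00 to 30.8 ± 5.85 TPM (SD over 4 libraries, log2 fold change -0.83, adjusted p 0.00429 in limma). Counting bgcn, 3 of the 6 germline markers had an unadjusted p under 0.05 in limma. In the authors' deposited table, 4 of the 6 passed at an adjusted p of 0.05. Other tissues contributed unevenly. The summed midgut markers reached 170 TPM in control 3 against 1.67 to 7.38 TPM elsewhere, and the spermathecal gene Send1 stood at 161 TPM in control 1 against 0 to 0.288 TPM elsewhere. Late follicle markers summed to 95 to 739 TPM in controls and 1484 to 6803 TPM with overexpression. In whole ovaries, fewer cells of a type and less RNA per cell cannot be told apart.

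Most P450 genes were transcribed at low levels. The median gene of the 79 had a mean of 1.71 TPM over the 8 libraries. Of the 79, 13 averaged 10 TPM or more, 39 lay between 1 and 10 TPM, 21 between 0.1 and 1 TPM and 6 below 0.1 TPM. The most abundant was Cyp4g1, which makes cuticular hydrocarbons in oenocytes, at a mean of 82.3 TPM. It was followed by Cyp6a13 (48.4 TPM), Cyp18a1 (48.3 TPM), Cyp305a1 (47.5 TPM) and Cyp6u1 (26.3 TPM). The next were Cyp9f2 (26.0 TPM), Cyp4p2 (24.8 TPM), Cyp6a9 (23.2 TPM), Cyp6v1 (20.9 TPM) and Cyp4d8 (18.7 TPM). Several genes with known roles outside the ovary were almost silent, among them Cyp303a1, needed for sensory bristles, at 0.0208 to 0.117 TPM. Cyp6t3, which acts in ecdysone synthesis in the larval prothoracic gland, did not exceed 0.0904 TPM.

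The question of the comparison was how transcription changes when more Stwl is present in such ovaries. Genes averaging 1 TPM or more across all libraries, 8898 in number, entered one limma fit on log2(TPM + 1), which understates the change of low genes. This covered 52 of the 79 P450 genes. The minimum separated Cyp6a18, Cyp309a2 and Cyp6a16 (1.01, 1.02 and 1.07 TPM) from Cyp4aa1, Cyp4ae1 and Cyp6a21 (0.852, 0.848 and 0.825 TPM). Of the 52, 40 averaged 1 TPM or more in both groups and 12 in only 1 group, including the called genes Cyp6a17, Cyp6g2, Cyp12d1-d and Cyp9h1.

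At an adjusted p of 0.05, 11 P450 genes were higher with Stwl overexpression, beside 6.2% of all 8898 tested genes. Another 4 were lower, beside 2.18% of all tested genes. The background depended on scaling: with median-of-ratios scaling 15 P450 genes were higher and 6 lower, beside 9.06% and 7.04% of all genes, and with quantile normalization 12 and 6, beside 7.45% and 8.04%. The median log2 fold change was 0.23 over the 52 P450 genes and 0.01 over all tested genes. In none of the 15 called genes did the groups overlap. Separate groups without regard to the test were seen in 15 P450 genes with higher and 6 with lower values, beside 10.3% and 5.64% of all tested genes. The 6 that missed the test were Cyp313b1, Cyp28a5, Cyp12a5, Cyp12e1, Cyp6a13 and Cyp6a20. On log2(TPM + 1), rises had log2 fold changes of 0.52 to 1.40, while falls ranged from -0.74 to -2.90. Among the other 37 tested genes, 25 had positive values, and all 37 lay between -0.95 and 0.51. Called genes were found in each family, but family 4 had 4 higher and none lower, and family 12 had 1 lower and none higher. Whether families differ in this respect was not tested. Without controls 1 and 3, where spermathecal or midgut markers were high, 4 higher and 2 lower P450 genes passed, beside 1.35% and 0.373% of all genes, a comparison with fewer samples that was chosen after seeing the data.

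**Figure D1:**
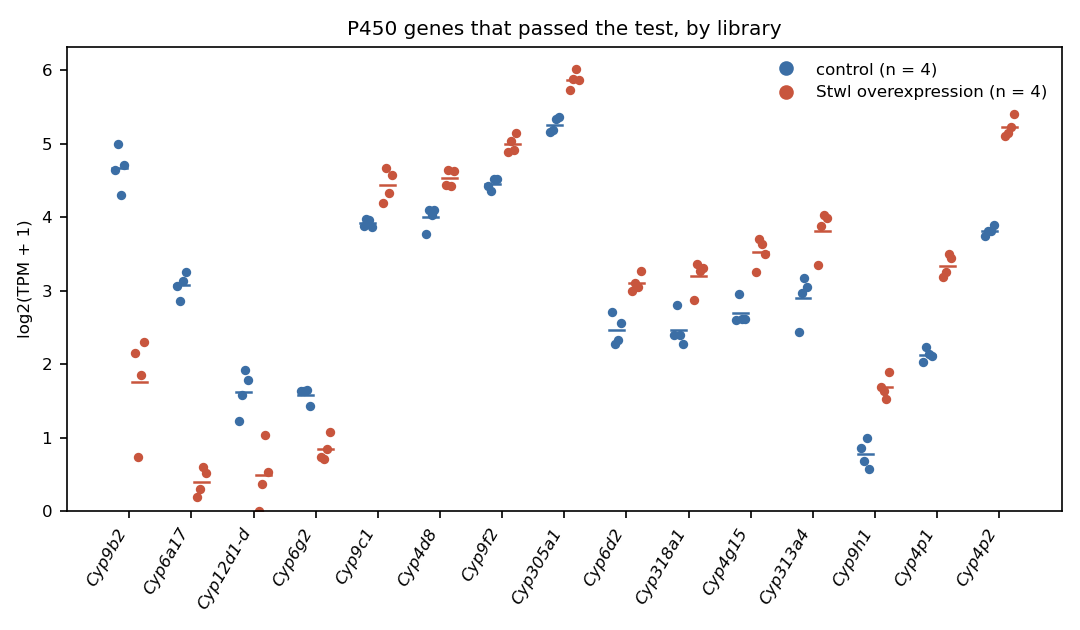
Abundance, as log2(TPM + 1), of the 15 P450 genes that passed the test, ordered by fold change, with each library as a point and the group mean as a line (4 control and 4 Stwl overexpression libraries). The groups do not overlap for any of the 15; Cyp9b2, Cyp6a17, Cyp12d1-d and Cyp6g2 are lower and the other 11 higher with overexpression.

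**Figure D2:**
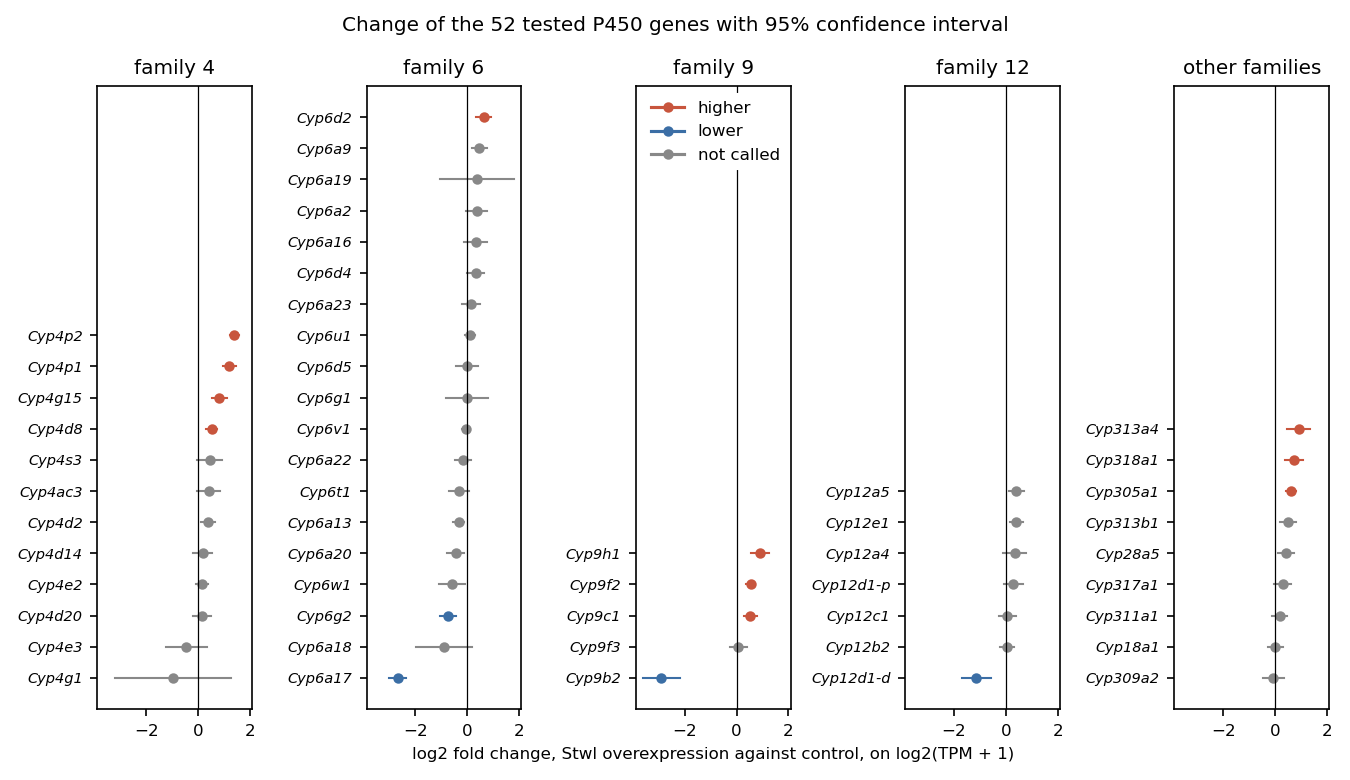
Log2 fold change on log2(TPM + 1) with its 95% confidence interval for the 52 tested P450 genes, by family and coloured by call. Family 6 is centred near 0, with a median of -0.02, whereas the medians of families 4 and 9 are 0.40 and 0.52; Cyp4g1 has the widest interval, -3.20 to 1.29.

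Within family 4, the neighbouring genes Cyp4p2 and Cyp4p1 changed most. Cyp4p2 (FBgn0033395, chromosome 2R, 9237512 to 9239831, BDGP6, plus strand) stood at 12.4, 13.1, 13.0 and 13.9 TPM in the controls and at 33.5, 34.4, 36.4 and 41.3 TPM with overexpression. Every overexpression library was thus above every control, by a log2 fold change of 1.40 ± 0.0801 (SE, 95% confidence interval 1.22 to 1.59, adjusted p 1.86e-05 in limma). Cyp4p1, which begins just downstream at 9240041, stood at 3.07, 3.68, 3.41 and 3.32 TPM in controls and at 8.07, 8.53, 10.2 and 9.83 TPM with overexpression. The groups were again separate (log2 fold change 1.21 ± 0.106 SE, adjusted p 0.000252 in limma). The third gene of the row, Cyp4p3, stayed below the minimum, at 0.527 ± 0.309 and 0.777 ± 0.223 TPM (SD over 4 libraries). All 3 lie inside hig on the opposite strand, and without a stated use of strand their reads and those of hig cannot be fully told apart. The level of hig itself was only 0.299 ± 0.104 and 0.757 ± 0.0961 TPM (SD over 4 libraries).

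Cyp4g15, of the same subfamily as Cyp4g1, rose from 5.05, 6.74, 5.12 and 5.11 TPM to 8.50, 12, 11.5 and 10.3 TPM (log2 fold change 0.83 ± 0.130 SE, adjusted p 0.00479 in limma). Control 2 was the highest of the controls and still below every overexpression library. Cyp4d8 rose by a log2 fold change of 0.53 (adjusted p 0.0099 in limma), from 15.1 ± 1.66 to 22.2 ± 1.86 TPM (SD over 4 libraries). Of the other 8 tested genes of this family, 6 had positive and 2 negative log2 fold changes, the latter being Cyp4e3 at -0.45 and Cyp4g1. Summed over the whole family, the groups were at 171 ± 82.9 and 173 ± 40 TPM (SD over 4 libraries). With Cyp4g1 left aside, a choice made after seeing the data, family 4 summed to 66.4 ± 3.6 TPM in the control group and to 113 ± 8.09 TPM in the overexpression group (SD over 4 libraries).

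Family 6, the largest, includes several insecticide-metabolising enzymes. Of its 19 tested genes, 1 rose and 2 fell, beside 6.2% and 2.18% of all tested genes. Cyp6a17, which shapes temperature preference in the adult brain, stood at 7.39, 6.23, 7.76 and 8.54 TPM in controls and at 0.139, 0.229, 0.511 and 0.425 TPM with overexpression. No overexpression library came near the control range (log2 fold change -2.68 ± 0.146 SE, adjusted p 1.78e-05 in limma). In the authors' deposited table its log2 fold change was -4.62. Cyp6g2, whose overexpression can confer insecticide resistance, stood at 2.10, 2.11, 2.12 and 1.70 TPM in controls and at 0.661, 0.639, 0.800 and 1.11 TPM with overexpression (log2 fold change -0.74 ± 0.144 SE, adjusted p 0.013 in limma). The groups did not overlap.

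Cyp6d2, linked to resistance to the plant alkaloid camptothecin, rose from 5.56, 3.85, 4.00 and 4.88 TPM to 6.94, 7.61, 7.28 and 8.60 TPM (log2 fold change 0.63 ± 0.125 SE, adjusted p 0.0137 in limma). The lowest overexpression library stood above the highest control. The 4 family 6 genes among the most abundant P450 genes did not pass the test. Cyp6a13 was at 53.9 ± 1.30 and 42.8 ± 5.76 TPM, Cyp6a9 at 19.1 ± 1.63 and 27.2 ± 4.88 TPM (SD over 4 libraries), with adjusted p of 0.0605 and 0.0599 in limma. Both passed in the authors' deposited table and with either other scaling, and without overexpression 1 (adjusted p 0.0238 and 0.00284 in limma); Cyp6a13 passed without overexpression 2 as well (0.0487). Cyp6u1 and Cyp6v1 were close to even, with log2 fold changes of 0.10 (95% confidence interval -0.10 to 0.30) and -0.06 (-0.21 to 0.09). Cyp6a18 had the second largest absolute change of the family, -0.90, but its control values ran from 0 to 4.79 TPM and its adjusted p was 0.336 in limma.

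In family 9, 3 of 5 tested genes rose and 1 fell, beside 6.2% and 2.18% of all tested genes. Cyp9b2 (chromosome 2R, 7130277 to 7132139, minus strand) had the largest fall of all P450 genes on log2(TPM + 1), from 23.9, 30.8, 18.8 and 25.2 TPM in controls to 3.43, 0.663, 2.62 and 3.93 TPM with overexpression. Its control values made it the most abundant gene of the family in that group, and the groups were far apart (log2 fold change -2.90 ± 0.316 SE, adjusted p 0.000963 in limma). With a pseudocount of 0.1 or 0.5 Cyp6a17 fell further, at -4.24 and -3.29 against -3.39 and -3.14 for Cyp9b2, as it did in the authors' deposited table. Its tandem neighbour Cyp9b1 was nearly silent, at 0 to 0.0956 TPM. Cyp9f2 rose from 20.4, 19.6, 22.0 and 22.0 TPM to 28.6, 31.7, 29.1 and 34.4 TPM (log2 fold change 0.54 ± 0.0788 SE, adjusted p 0.00381 in limma). Cyp9c1 rose from 14.1 ± 0.578 to 20.9 ± 3.34 TPM (SD over 4 libraries, log2 fold change 0.52). Its adjusted p in limma was 0.0182 with all libraries but 0.0569, 0.0605 and 0.0533 without control 1, control 4 or overexpression 2. Cyp9h1 rose from 0.811, 0.604, 0.996 and 0.487 TPM to 2.23, 2.09, 1.87 and 2.73 TPM (log2 fold change 0.91 ± 0.155 SE, adjusted p 0.00736 in limma). With a pseudocount of 0.1 its log2 fold change was 1.53, above the 1.46 of Cyp4p2, and with 0.5 it was 1.17, below 1.44. In the authors' deposited table the values were 1.59 for Cyp9h1 and 1.44 for Cyp4p2. Summed over the family, the fall of Cyp9b2 and the rises of the others left 64.4 ± 4.15 and 61.0 ± 6.37 TPM (SD over 4 libraries).

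Family 12 belongs to the mitochondrial clan, and 1 of its 7 tested genes was called, as lower, beside 2.18% of all tested genes. Cyp12d1-d stood at 1.34, 1.99, 2.77 and 2.43 TPM in controls and at 0, 0.291, 1.06 and 0.440 TPM with overexpression (log2 fold change -1.14 ± 0.247 SE, adjusted p 0.0211 in limma). Its near-identical copy Cyp12d1-p stood at 2.00, 1.94, 2.49 and 3.21 TPM against 2.83, 2.54, 3.94 and 3.19 TPM and did not pass (log2 fold change 0.28). The Cyp12d1 enzymes can confer resistance to DDT, and reads of the 2 copies are hard to assign, so the value of each is uncertain. The call of Cyp12d1-d also ended without control 2, control 3, control 4 or overexpression 2, with adjusted p of 0.0529, 0.0583, 0.0691 and 0.0671 in limma. Cyp12a5, the next largest change of the family, was at 2.48 ± 0.270 and 3.62 ± 0.625 TPM (SD over 4 libraries, adjusted p 0.108 in limma), and passed without overexpression 1 (0.0465).

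Among the other families, 3 of 9 tested genes rose, beside 6.2% of all tested genes. Cyp305a1, of the CYP2 clan that also holds ecdysteroid enzymes, stood at 34.7, 35.2, 39.6 and 40.0 TPM in controls and at 52, 57.7, 63.7 and 57.1 TPM with overexpression. It had the highest level of all called P450 genes in both groups (log2 fold change 0.61 ± 0.0788 SE, adjusted p 0.00205 in limma). Cyp313a4 rose from 4.41, 6.81, 7.99 and 7.29 TPM to 9.19, 13.8, 15.4 and 14.8 TPM (log2 fold change 0.91 ± 0.195 SE, adjusted p 0.0206 in limma). Without overexpression 2, 3 or 4 its adjusted p was 0.0667, 0.0657 and 0.0537 in limma. Cyp318a1 rose from 4.58 ± 0.957 to 8.26 ± 1.34 TPM (SD over 4 libraries, log2 fold change 0.73, adjusted p 0.0182 in limma). Its call ended without control 1, control 3, control 4, overexpression 2 or overexpression 3, at adjusted p of 0.0569, 0.0532, 0.0599, 0.0650 and 0.0587. Cyp304a1 lay below the minimum here, at 0.113 to 0.195 TPM in controls and 0.641 to 1.27 TPM with overexpression. In the authors' deposited table it had a log2 fold change of 2.58 and an adjusted p of 2.44e-07. None of the 11 genes of these families that were not tested exceeded 1.27 TPM in any library.

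Of the 79 genes, 41 lay in 14 clusters whose members are at most 20 kb apart, and 7 of these clusters held a called gene. By the limma calls given above, no cluster held both a higher and a lower gene, and differences between neighbours were not tested. In the authors' deposited table, Cyp6a9 was higher in the cluster of the lower Cyp6a17 and Cyp6a20 (adjusted p 4.26e-05, 1.66e-61 and 0.0018 there). Cyp6a15Psi was higher there (0.0309) in the cluster of the lower Cyp6a13 (0.000735). With median-of-ratios or quantile scaling, Cyp6a9 passed as higher too (adjusted p 0.0102 and 0.0112 in limma). The largest cluster, on chromosome 2R from 14871366 to 14903095, held 8 genes, of which Cyp6a17 alone was called in limma as given above. Beside it on one side, Cyp6a22 was at 4.06 ± 0.260 and 3.58 ± 0.773 TPM, and on the other Cyp6a23 at 6.06 ± 1.41 and 6.69 ± 0.831 TPM (SD over 4 libraries). These are close relatives of Cyp6a17, so the assignment of reads among them is uncertain. Further along the row, Cyp6a20, linked to male aggression, was at 3.83 ± 0.511 and 2.54 ± 0.465 TPM (SD over 4 libraries, adjusted p 0.0866 in limma). In the Cyp6g cluster, Cyp6g1, the gene best known for DDT resistance, was at 6.57 ± 2.88 and 6.71 ± 3.64 TPM, beside the fall of Cyp6g2 (SD over 4 libraries). The annotated ends of Cyp6g1 and Cyp6g2 overlap on opposite strands, as do those of Cyp6a19 and Cyp6a9. All 4 lower genes lay on chromosome 2R, which carried 34 of the 78 P450 genes with a known position, and 5 of the 11 higher genes lay there too.

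**Figure D3:**
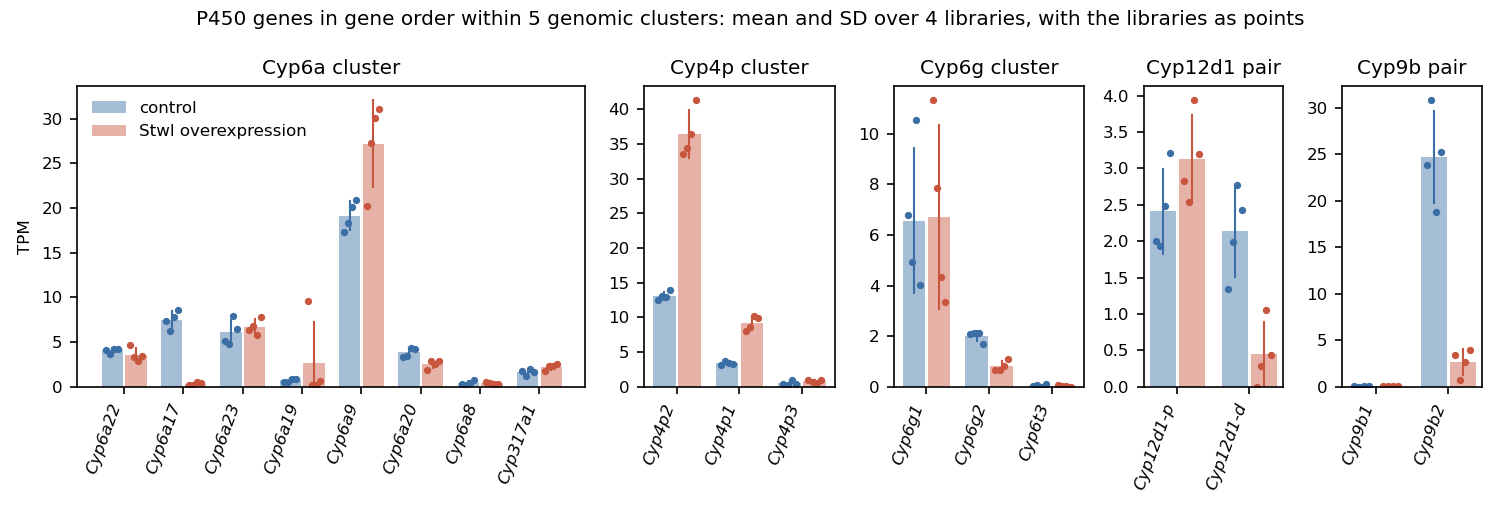
TPM of the P450 genes of 5 genomic clusters in gene order, with bars for the mean, lines for the SD (not drawn below 0) and points for the 4 libraries of each group. Within single clusters, Cyp6a17, Cyp6g2 and Cyp12d1-d fall while Cyp6a23, Cyp6g1 and Cyp12d1-p show overlapping groups; in the Cyp4p cluster, Cyp4p2 and Cyp4p1 both rise.

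Genes of other families that flank the called P450 genes were examined after the calls were known. Within 5 kb of the 11 higher P450 genes, 28 other genes were tested, of which 7 were higher and none lower, beside 6.2% and 2.18% of all tested genes. Of these, 5 lay beside Cyp6d2: CG34446, CG34445, CG3746, CG43326 and CG42565. The others were antr beside Cyp9h1 and CG8539 beside Cyp4d8. Antr rose from 2.32 ± 0.413 to 5.22 ± 1.13 TPM and CG8539 from 21.2 ± 0.257 to 31.5 ± 3.20 TPM (SD over 4 libraries). The 4 tested neighbours of the lower P450 genes did not pass.

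Averaged over the 8 libraries, ecdysteroid genes ranged from 0.0429 TPM for spok to 48.3 TPM for Cyp18a1, and none of those tested was called. In Drosophila the steroid is made by the P450 genes spo, spok, phm, dib, sad and shd, whose symbols do not begin with Cyp, together with nvd and sro. Of these 8, 7 were tested and 0 passed, beside 6.2% higher and 2.18% lower among all tested genes. The 7 had a median log2 fold change of -0.02, beside 0.01 for all tested genes. None of the 7 had an unadjusted p under 0.05 in limma, and 0 passed in the authors' deposited table. The early-step gene spo stood at 42.5, 32.6, 26.1 and 23.4 TPM in controls and at 37.1, 28.9, 22.5 and 20.2 TPM with overexpression. The hydroxylase gene sad was at 21.6 ± 3.94 and 21.3 ± 4.58 TPM (SD over 4 libraries). The paralogue spok, the larval form, did not exceed 0.132 TPM. Means over the 8 libraries were 3.41 TPM for dib and 6.95 TPM for shd. Cyp18a1, whose enzyme inactivates ecdysteroids by oxidation, stood at 40.5, 43.0, 51.8 and 57.5 TPM in controls and at 40.5, 46.3, 53.6 and 53.7 TPM with overexpression. The groups overlapped throughout (log2 fold change 0.01, 95% confidence interval -0.28 to 0.30, adjusted p 0.972 in limma). Among the other inactivating genes, Eo stayed below 0.6 TPM and CG9512 was at 9.88 ± 4.24 and 4.51 ± 2.56 TPM (SD over 4 libraries, adjusted p 0.145 in limma).

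Transcripts of the 7 genes listed here as redox partners of P450 enzymes were present throughout, from 7.64 TPM for Cyt-b5-r to 246 TPM for Cyt-b5 on average. Whether each of them feeds electrons to P450 enzymes was not tested. Of 7 tested redox partners, 2 rose and none fell, beside 6.2% and 2.18% of all tested genes. In the authors' deposited table only 1 of the 7 passed. Cpr, the reductase of the microsomal enzymes, was at 57.0 ± 5.07 and 59.0 ± 4.81 TPM (SD over 4 libraries, adjusted p 0.812 in limma). The cytochrome b5 reductase gene CG5946 rose from 111, 116, 116 and 113 TPM to 127, 154, 159 and 157 TPM (log2 fold change 0.38 ± 0.0739 SE, adjusted p 0.0128 in limma). Cyt-b5 itself missed the threshold, at 234 ± 2.49 and 257 ± 5.49 TPM (SD over 4 libraries, adjusted p 0.064 in limma). Fdx2, a mitochondrial ferredoxin gene, rose from 35.3 ± 0.813 to 43.2 ± 3.23 TPM (SD over 4 libraries, log2 fold change 0.28, adjusted p 0.0272 in limma). Fdx1 and dare, the ferredoxin reductase gene, had log2 fold changes of -0.12 and -0.06.

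Regulators of the detoxification response did not pass the test on unscaled TPM, beside 6.2% higher and 2.18% lower among all tested genes. Of 8 listed genes 5 were tested, with a median log2 fold change of 0.04, and 0 had an unadjusted p under 0.05 in limma, while 1, cnc, passed in the authors' deposited table and with median-of-ratios or quantile scaling (adjusted p 0.0257 and 0.0418 in limma). The transcription factor gene cnc was at 73.9 ± 1.91 and 66.2 ± 9.49 TPM and its partner maf-S at 133 ± 0.571 and 145 ± 9.35 TPM (SD over 4 libraries). Of 5 tested genes of juvenile hormone synthesis and turnover, 1 rose and none fell, beside 6.2% and 2.18% of all tested genes. The epoxide hydrolase gene Jheh2 was the one that rose, from 101 ± 5.16 to 130 ± 11.4 TPM (SD over 4 libraries, log2 fold change 0.37, adjusted p 0.0132 in limma). Its relative Jheh1 was at 14.3 ± 1.94 and 17.0 ± 1.55 TPM (SD over 4 libraries, adjusted p 0.258 in limma).

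Cyp4g1 varied more within groups than between them. It stood at 117, 216, 20 and 64.7 TPM in the controls and at 72.4, 3.98, 89.5 and 75.1 TPM with overexpression (log2 fold change -0.95 ± 0.995 SE, adjusted p 0.671 in limma). The genes of hydrocarbon synthesis Fad2 and eloF, which act in female oenocytes, had their extremes in the same libraries. Fad2 stood at 17.9, 33.6, 2.53 and 8.83 TPM in controls and at 15.9, 0.223, 13.8 and 12.9 TPM with overexpression. The elongase gene eloF was at 14.8 TPM in control 2 and at 0.0491 TPM in overexpression 2. Of the 7 listed hydrocarbon genes, 0 passed in limma, beside 6.2% higher and 2.18% lower among all tested genes. In limma 1 of the 7 had an unadjusted p under 0.05, and 2 passed in the authors' deposited table. The broadly expressed desaturase gene Desat1 kept a narrow range of 211 to 259 TPM. Bond, an elongase gene also active in germ cells, was at 188 ± 74.8 and 134 ± 60.3 TPM (SD over 4 libraries, adjusted p 0.496 in limma).

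Cyp6g1 and Cyp12a4, whose enzymes act on insecticides, also varied within groups, over narrower ranges than Cyp4g1 and with their peaks in other libraries. Cyp6g1 stood at 6.77, 4.95, 10.5 and 4.03 TPM in controls and at 11.3, 7.85, 4.32 and 3.33 TPM with overexpression. Cyp12a4 had its highest control value, 7.25 TPM, in control 3 as well, and its highest overexpression value, 7.92 TPM, in overexpression 1. Of 7 Malpighian tubule markers, Uro, NaPi-T, salt and CG3690 were highest in the same libraries, Uro at 13.4 TPM in control 3 and at 5.85 TPM in overexpression 1. Picot and Irk2 peaked in control 3 and overexpression 3, and Best2 in control 1 and overexpression 4. The 7 tubule markers together summed to 154 to 199 TPM in controls and 187 to 212 TPM with overexpression, most of it from Picot and Best2. The part of such tissue in any P450 level was not tested.

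**Figure D4:**
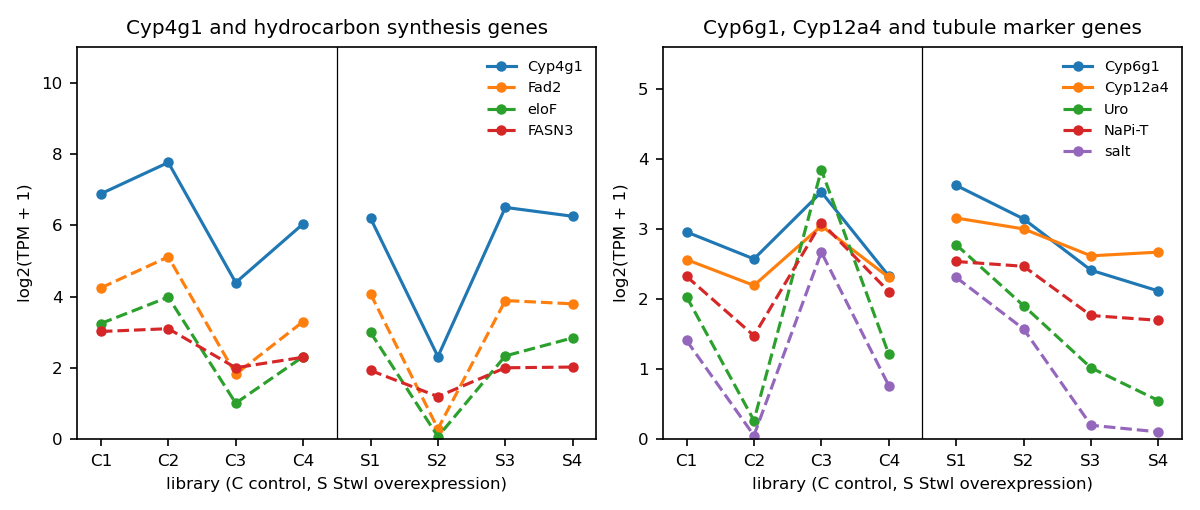
Abundance, as log2(TPM + 1), in each library (C1 to C4 control, S1 to S4 Stwl overexpression) of Cyp4g1 beside hydrocarbon synthesis genes, left, and of Cyp6g1 and Cyp12a4 beside tubule markers, right. Lines only guide the eye, since replicates have no order; Cyp4g1, Fad2 and eloF all have their highest value in control 2 and their lowest in overexpression 2.

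Summed over the 79 genes, P450 transcripts came to 534, 641, 482 and 513 TPM in the controls and to 539, 523, 615 and 625 TPM with overexpression. The ranges overlapped. Without Cyp4g1, a choice made after seeing the data, the sums were 417 to 462 TPM in controls and 467 to 550 TPM with overexpression, and no longer overlapped. Family 6 was nearly even, at 174 ± 9.33 and 169 ± 6.61 TPM, and the other families gave 111 ± 11.9 and 147 ± 17.0 TPM (SD over 4 libraries). Markers of several other cell types moved with the groups too, beside 6.2% higher and 2.18% lower among all tested genes. Of 9 muscle sheath markers 8 were higher, with a median log2 fold change of 0.68 and sums of 2068 to 2798 against 3422 to 4235 TPM. Of 8 hemocyte markers 6 were higher, with a median of 0.89 and sums of 81.0 to 128 against 158 to 234 TPM. All 7 late follicle markers were higher, with a median of 4.30. Fat body, oenocyte, tubule and midgut markers had medians of 0.01, -0.03, -0.16 and -0.78, with 2 higher and 1 lower among them. The part of these cell types in the P450 changes was not tested.

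**Figure D5:**
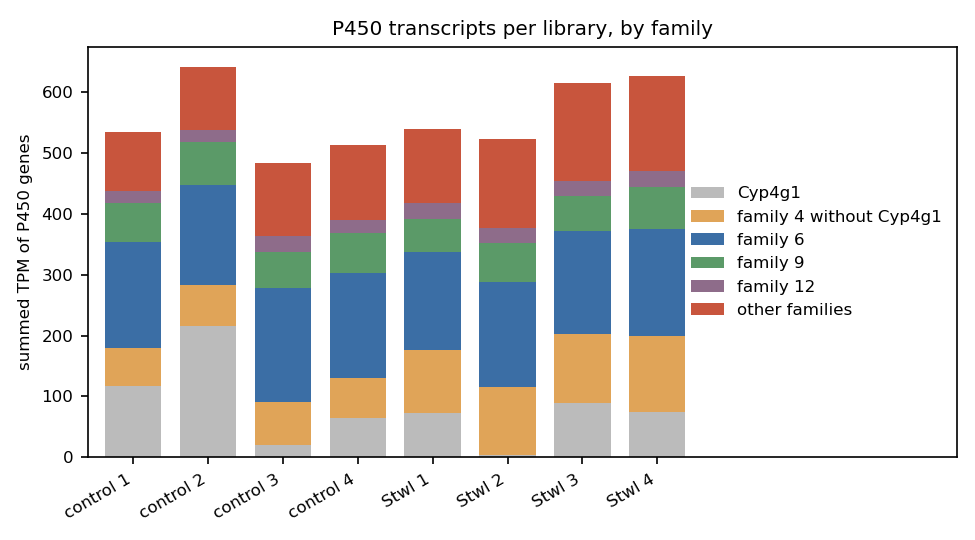
Summed TPM of the 79 P450 genes in each library, stacked by family with Cyp4g1 shown apart. Cyp4g1 alone ranges from 3.98 to 216 TPM, while family 4 without it is higher in all 4 overexpression libraries (104 to 124 TPM) than in the controls (62.2 to 70.9 TPM).

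In the authors' deposited table, 20 of the 75 P450 genes with an adjusted p were higher and 6 lower at 0.05, beside 10.5% and 8.4% of all genes with an adjusted p there. These 26 included all 15 genes called in limma, in the same direction. Of the other 9 higher ones, 7 were tested but not called in limma and Cyp304a1 and Cyp6a15Psi were not tested. The 2 further lower ones were Cyp6a13 and Cyp6a20. The authors' own mark was Up for 8 P450 genes and Down for 5, beside 3.46% and 1.35% of all genes in the table.

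The same deposited table marks genes with a Stwl peak within 1 kb and genes found upregulated in either of 2 other studies, without giving the origin of the peaks or the conditions of those studies. A peak was marked for 46 of the 79 P450 genes (58.2%), against 73.7% of all 11397 genes. Of the 11 higher genes 6 had one, among them Cyp305a1, Cyp9f2 and Cyp313a4, whereas Cyp4p2, Cyp4p1, Cyp4g15, Cyp9c1 and Cyp9h1 had none. Of the 4 lower genes only Cyp6a17 had one. Upregulation elsewhere was marked for 39 of the 79 (49.4%), against 21.2% of all genes in the table. The mark was present for 10 of the 11 higher genes, Cyp4p2 being the exception, and for 1 of the 4 lower genes, Cyp6a17. No test was made of these shares.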

How the data were processed

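Polyadenylated RNA from 4 control and 4 overexpression samples was sequenced. Salmon 1.10.1, DESeq2 1.37.4 and the build BDGP 6 are listed in the submitters' processing notes, which assign them no role. The authors deposited TPM values for 14094 genes; the column headers say log2 TPM, but the values are linear and were used so. A second deposited table, of 11397 genes, holds a log2 fold change with its standard error, raw and adjusted p-values, a mean normalised signal and a test score, per the file headers.

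Here log2(TPM + 1) of the 8898 genes averaging 1 TPM or more went into limma 3.58.1 (R 4.3.3), with group as the only term and a variance trend. Benjamini-Hochberg adjustment ran over all tested genes, at a threshold of 0.05. The fit was tested on simulated data. No count model was run, since TPM values are not counts. Positions came from Ensembl release 115, which placed 78 of the 79 P450 genes. Intervals are at the 95% level. The naming rule took every called P450 gene, the 10 most abundant, the 2 largest changes of each family, the 2 most abundant genes of each pathway list, stwl and y. Other genes were named after their values were seen. P450 genes, lists and markers were chosen with earlier results of these data known. Alternatives covered the pseudocount, the filter, scaling, library weights, a replicate block, left-out libraries and the authors' test. Figures were drawn with matplotlib 3.10.9.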

Additional observations from a re-analysis of the deposited data

Results flagged for a closer look

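Among 130 groups of 4 libraries examined for a single library far from the other 3, 7 stood out, and chance alone gives about 1 in 20. Cyp6a19 was at 9.54 TPM in overexpression 1 against 0.173 to 0.597 TPM in the other overexpression libraries, and its uncalled log2 fold change of 0.38 rests on that library. Cyp4g15 was at 6.74 TPM in control 2 against 5.05 to 5.12 TPM in the other controls. Cyp4d2 was at 6.73 TPM in control 3 against 5.11 to 5.23 TPM. Cyp6v1 was at 23.0 TPM in control 1 against 20.7 to 21.0 TPM. Cyp6g2 was at 1.70 TPM in control 4 against 2.10 to 2.12 TPM. Cyp12c1 was at 3.79 TPM in overexpression 4 against 2.43 to 2.59 TPM. CG5946 was at 127 TPM in overexpression 1 against 154 to 159 TPM.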

How the results depend on the processing

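The 11 higher and 4 lower P450 genes became 22 and 10 with library weights, under which 25.8% and 9.04% of all genes were higher and lower. A minimum mean of 5 TPM left 1 lower gene, since fewer genes were then tested, and the authors' deposited test called 20 higher. Without control replicates 1 and 3, chosen after seeing the data, 4 and 2 passed. Leaving out each library in turn gave 8 to 16 higher and 3 to 5 lower genes, a log2 fold change of 1.17 to 1.36 for stwl, and a log2 ratio of summed P450 abundance of 0.03 to 0.18, against 0.09 with all libraries. With the replicate block 13 were higher and 4 lower, including all 15 called without it. Over all tested genes, deviations of same-numbered libraries correlated at 0.128, -0.0174, -0.134 and 0.144, and of differently numbered ones at -0.246 to 0.271. The labels state no pairing, and these correlations cannot decide whether single genes vary with the replicate number. The block also took bond (log2 fold change -0.50) from an adjusted p of 0.496 to 0.0104 in limma, and Cyp6a9 to 0.0217. Of the 15 called genes, Cyp305a1, Cyp4p1, Cyp4p2, Cyp6a17, Cyp9b2 and Cyp9h1 kept their call under every alternative that tested them, and no called gene changed direction. Cyp4d8, Cyp4g15, Cyp6d2, Cyp6g2 and Cyp9f2 lost it only without both controls 1 and 3. Cyp12d1-d also lost it with a pseudocount of 0.1 (adjusted p 0.057 in limma). Of 8 named P450 genes that were not called, 5 gained a call under some alternative: Cyp6a9, Cyp6a13, Cyp12a5, Cyp6u1 and Cyp6a18, the last 2 only with library weights. Without overexpression 1, CG9512, maf-S and Cyt-b5 passed too (adjusted p 0.0347, 0.0403 and 0.0319 in limma).

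Changes of direction occurred only in genes that were not called. For Cyp18a1 the log2 fold change was -0.017 with median-of-ratios scaling, -0.015 with quantile normalization, -0.0044 without the 20 most abundant genes, -0.027 in the authors' deposited test, -0.044 without controls 1 and 3, and -0.064 to 0.10 over single left-out libraries. Cyp4g1 reached 0.62 with library weights and -1.58 to 0.048 over single left-out libraries, the last without overexpression 2. Desat1 reached 0.050 with library weights, 0.017 without controls 1 and 3, and -0.062 to 0.035 over single left-out libraries. For sad the values were 0.061 without controls 1 and 3 and -0.15 to 0.066 over single left-out libraries. The causes were not tested. TPM keeps no depth, so counting error of low genes could not be given.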
